A study of Mus musculus with 16 samples.

Results

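The effect of the loss of Mtm1 on the transcriptome of untreated mouse skeletal muscle was measured by RNA sequencing of quadriceps, as the comparison of 3 Mtm1 knockout (KO) libraries with 3 wild type (WT) libraries out of the 16 libraries of the series. The 6 libraries were chosen as those behind the pairwise comparison of the study, Mtm1 KO replicates 9, 10 and 11 and WT replicates 2, 3 and 4, and all genes were members. KO mice carried a constitutive deletion of Mtm1 exon 4 made by homologous recombination, and WT mice were littermates per the study's methods, both on a C57BL/6 background per the labels and C57BL6J per the methods. Both groups were sampled on postnatal day 36 per the labels, whereas the study's supplementary text names the day before, and received no tamoxifen. KO_12 and the library labelled WT_1 were untreated libraries of the same groups and served only as a check. The remaining 8 libraries, WT_TAM and KO_TAM with 4 each, came from mice given tamoxifen at 40 mg/kg in chow per the labels, and were used only to look at the same genes in other mice. A constitutive knockout removes the gene from every tissue, and whole quadriceps holds vessels, nerve, connective tissue, fat and blood beside the muscle fibers. In such bulk RNA, fewer cells of a type and less RNA per cell cannot be told apart.

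Myotubularin, the product of Mtm1, is a lipid phosphatase that removes a phosphate from phosphoinositides of endosomal membranes. Its loss causes X-linked myotubular myopathy, a severe congenital muscle disease with small fibers, central nuclei and disordered triads, the junctions of a T-tubule with the sarcoplasmic reticulum at which depolarization is coupled to calcium release. The proteins DNM2, BIN1 and the lipid kinase PIK3C2B act in the same membrane pathway.

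The deleted sequence is exon 4 of Mtm1 on chromosome X from 71234852 to 71234946 on the plus strand (GRCm38, in a GENCODE vM21 transcript of 15 exons). Its 95 bases are shown because they are what the KO lacks, with all bases in capitals since all are coding.

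Mtm1 exon 4: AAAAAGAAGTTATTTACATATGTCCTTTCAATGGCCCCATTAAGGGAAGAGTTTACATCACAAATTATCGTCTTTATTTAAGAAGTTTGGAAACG

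In that transcript 136 coding bases precede the exon. Counts are per gene, so that reads of the remaining exons are counted in KO libraries too. Mtm1 was at 379.8, 403 and 381 normalized counts in WT replicates 2, 3 and 4 and at 70.7, 58.6 and 68.3 in KO replicates 9, 10 and 11 (log2 fold change -2.56 ± 0.17 (SE), adjusted p = 0.000214). Normalized counts are read counts scaled with TMM factors, adjusted p is from the quasi-likelihood test of edgeR, corrected over all genes tested by the Benjamini-Hochberg method, and a gene was called at an adjusted p of at most 0.01. KO_12 was at 88.1. The library labelled WT_1 was at 108 normalized counts, from 74 reads, nearer to KO than to the other WT libraries and against its label. With both check libraries added, the difference of Mtm1 no longer passed (adjusted p = 0.0113).

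Total counts per library ran from 26005229 to 28171147 in KO and from 27555316 to 28338738 in WT. Between 16.9 and 18.8% of the KO counts fell on the 10 most abundant genes of a library, and between 23.6 and 27.6% of the WT counts. Among the WT libraries, WT_3 stood apart in genes of slow and oxidative fibers. It held 34.3 normalized counts of the slow myosin Myh7 and 28.4 of Csrp3, against 2462 and 3638 of Myh7 and 739 and 1319.9 of Csrp3 in WT_2 and WT_4. WT_2 stood apart in genes of fat cells, with 3121 normalized counts of Adipoq against 193 and 353. Per the study's methods, sample numbers in its mouse experiments stand for individual mice, and p-values measure the spread between them.

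Of 14740 genes tested, 531 were called (3.6%), with 282 higher (1.91%) and 249 lower (1.69%) in KO. The higher genes had a median log2 fold change of 1.505 and 89 of them were at least 4-fold higher, whereas the lower genes had a median size of 1.23 and 44 were at least 4-fold lower. When 1 library was left out, the number of called genes was 263, 244 and 194 without WT_2, WT_3 and WT_4, and 363, 211 and 182 without KO_9, KO_10 and KO_11. Only 130 of the 531 genes, 83 higher and 47 lower, were called in all 6 of these fits. Each of them holds 1 library fewer than the main fit, so a lost call alone does not point to the library left out. With scaling by library totals alone in place of TMM, which moved the median log2 fold change over all tested genes from 0.023 to 0.334, 1163 genes were called and 1023 of them were higher, and limma on log2(RPKM + 0.1), which is scaled the same way, called 824 with 718 higher. Of all genes tested, 36.2% had no overlap between the groups, with KO above WT in 18.7% and below in 17.5%. By the quasi-likelihood test, 4431 of the 14740 genes had an unadjusted p of at most 0.05. DESeq2 and edgeR's exact test both called 1371 of the 14740.

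**Figure D1:**
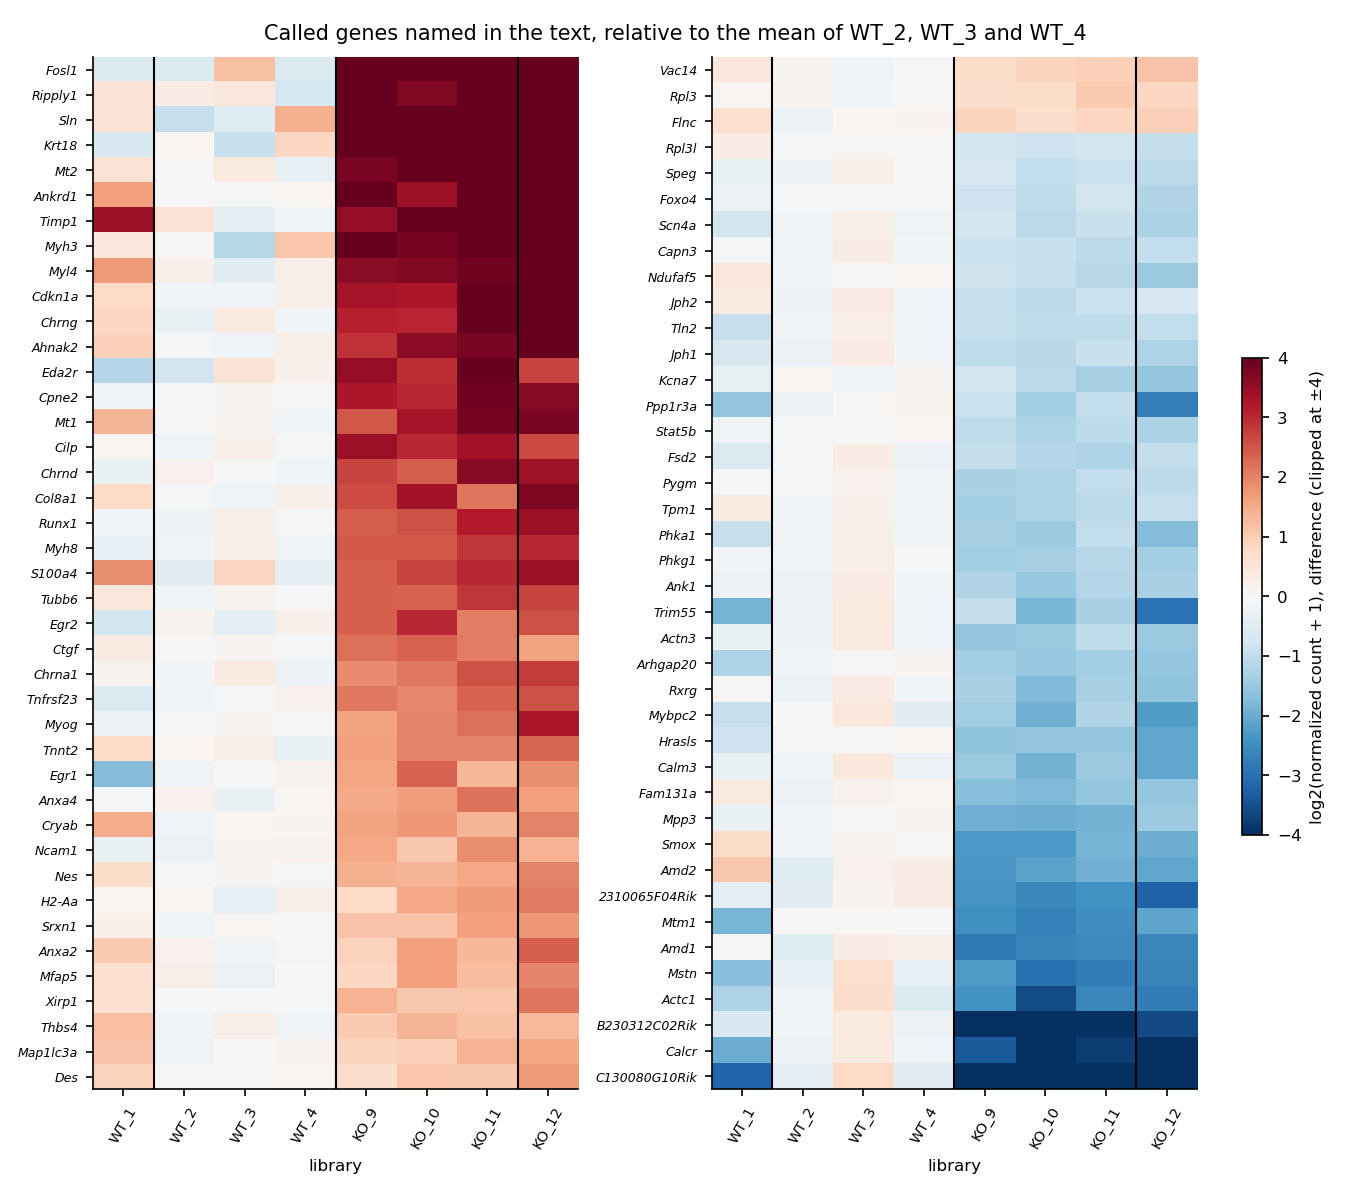
Log2 of the normalized count plus 1 in each of 8 libraries, relative to the mean of WT_2, WT_3 and WT_4, for the called genes selected by the naming rule, ordered by fold change and clipped at 4 in either direction. WT_1 and KO_12, set apart by black lines, were not in the test. In Ankrd1, Timp1 and Cryab the library labelled WT_1 lies above the other WT libraries, and in Mtm1, Mstn and C130080G10Rik it lies below them.

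Genes of fiber strain held the most called genes of the lists followed. The lists were written with earlier results of these data known, so their counts and medians describe the members and are no test of a list. Over all genes tested, 1.91% were called higher and 1.69% lower. Of 20 tested genes of the stretch and strain response, 11 rose and 0 fell, with 7 to 11 called when 1 library was left out, all 20 had a log2 fold change above 0, and the median was 1.24 against 0.023 over all genes. Ankrd1, a titin-bound ankyrin repeat protein that moves between sarcomere and nucleus, was at 274, 261 and 288 normalized counts in WT and 5117, 2975 and 6585 in KO (log2 fold change 4.16 ± 0.28 (SE), adjusted p = 0.000214). Xirp1, an actin-binding protein that gathers at sites of fiber damage, was at 2992, 3076 and 3005 in WT and 7938, 6409 and 6596 in KO (log2 fold change 1.21 ± 0.13 (SE), adjusted p = 0.00121). The groups were far apart in both genes. For genes called in the same libraries, here and below, a lack of overlap is no separate result.

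Bag3, Hspb1, Hspb7, Krt8 and Rrad were the other members that rose. Among intermediate filament genes, Krt18, a keratin of simple epithelia, was at 19.6, 9.46 and 33.7 normalized counts in WT and 663, 586 and 1119 in KO (log2 fold change 5.22 ± 0.41 (SE), adjusted p = 0.000274). Nes, which encodes nestin of immature and regenerating fibers, was at 2732, 3083 and 2696 in WT and 7636, 7249 and 8194 in KO (log2 fold change 1.44 ± 0.12 (SE), adjusted p = 0.000459). Desmin, the filament that ties Z discs to each other, was at 72560.0, 76356 and 81571 for Des in WT and 125636, 167213 and 161069.6 in KO (log2 fold change 0.98 ± 0.17 (SE), adjusted p = 0.00832), and its call was lost without any 1 of the libraries except KO_9 (adjusted p up to 0.037). Among small heat shock proteins, Cryab, a chaperone of desmin, was at 13192, 15736 and 16102 in WT and 45229, 49322 and 38778 in KO (log2 fold change 1.57 ± 0.16 (SE), adjusted p = 0.00088). KO_12 lay above all 3 of the KO libraries in Ankrd1, Xirp1, Krt18, Nes, Des and Cryab.

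Other members of the same list did not pass the quasi-likelihood test. Csrp3, a muscle LIM protein, was at 739, 28.4 and 1319.9 in WT and 7882, 9035 and 5041 in KO (log2 fold change 3.39 ± 0.90 (SE), adjusted p = 0.0402), and was called only without WT_3 (adjusted p = 0.00268). For Ankrd2 the values were 1997, 285 and 2668 in WT and 8029, 9657 and 4396 in KO (adjusted p = 0.058). WT_3 was the lowest library in both. Added to the test, the check libraries left the list with 5 called genes, and the calls of Xirp1, Cryab and Des were lost (adjusted p = 0.0226, 0.0894 and 0.105).

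**Figure D2:**
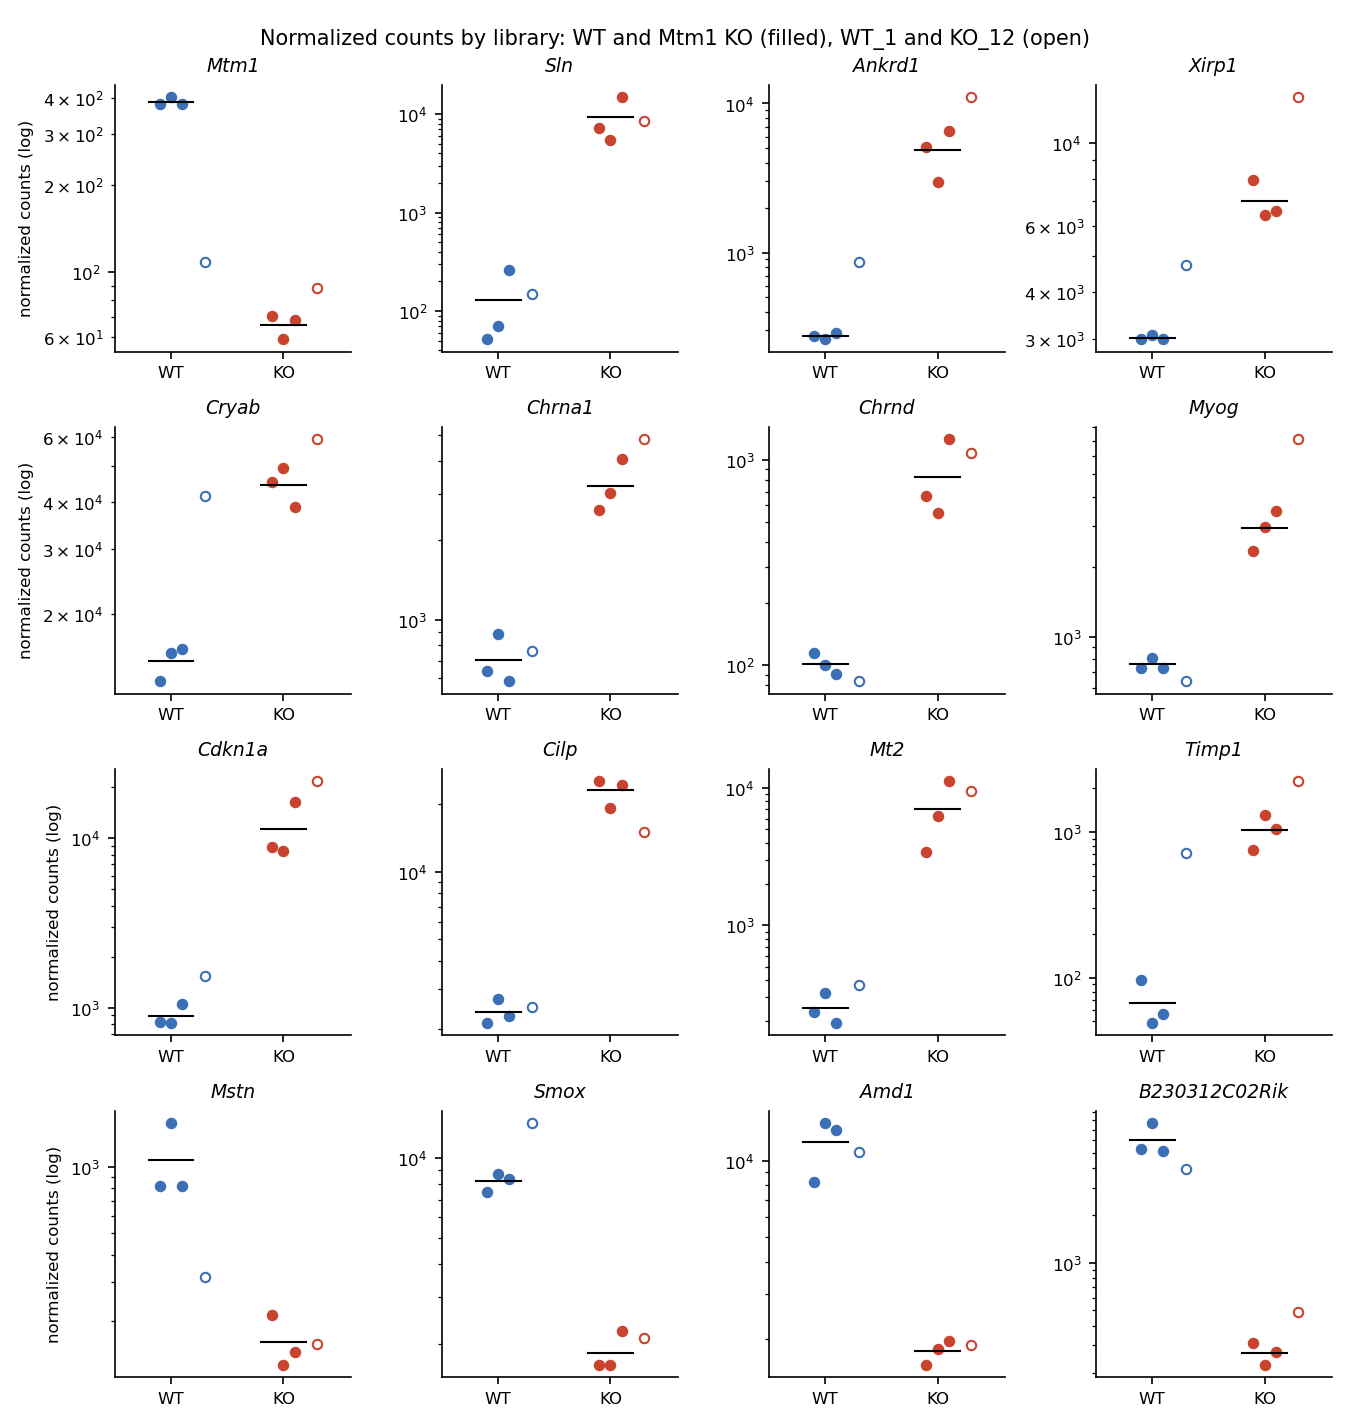
Normalized counts of 16 genes on log axes, with the 3 WT (blue) and 3 Mtm1 KO (red) libraries as filled points, their mean as a line, and the library labelled WT_1 and KO_12 as open points. The 16 genes were picked among those called in the same libraries, so the lack of overlap between the filled points of the groups is no separate result. The open WT_1 point lies close to the KO points in Mtm1, Cryab and Timp1.

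Developmental forms of contractile proteins were among the genes that rose. Of 11 tested embryonic, neonatal and cardiac isoforms, 4 rose and 1 fell (median log2 fold change 0.81), with 4 to 5 called when 1 library was left out. On the RPKM scale, which divides by gene length, the embryonic myosin heavy chain Myh3 was at 0.379, 0.150 and 0.797 RPKM in WT and 8.92, 6.45 and 8.71 in KO (log2 fold change 3.89 ± 0.44 (SE), adjusted p = 0.00134). The neonatal heavy chain Myh8 was at 0.300, 0.357 and 0.293 RPKM in WT and 2.20, 2.23 and 2.76 in KO (log2 fold change 2.60 ± 0.19 (SE), adjusted p = 0.000214). The lowest KO library was above the highest WT library in both, which is no separate result for called genes.

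Myl4, the atrial and embryonic essential light chain, was at 1.24, 0.704 and 1.25 RPKM in WT and 15.8, 17.1 and 18.2 in KO (log2 fold change 3.70 ± 0.20 (SE), adjusted p = 7.99e-05). Cardiac troponin T, Tnnt2, which fetal skeletal muscle also makes, was at 0.683, 0.692 and 0.510 in WT and 2.45, 3.11 and 2.94 in KO RPKM (log2 fold change 1.86 ± 0.19 (SE), adjusted p = 0.000913). The member that fell was Actc1, the cardiac actin, at 3478, 5656 and 2551 RPKM in WT and 879, 392 and 729 in KO (log2 fold change -2.88 ± 0.40 (SE), adjusted p = 0.00329). WT_3 was the highest in Actc1, and the call was lost without KO_10 or without KO_11 (adjusted p up to 0.0142). Even after these rises Myh3 and Myh8 stayed far below the adult myosins, of which Myh4 was at 2865, 2621 and 3665 RPKM in KO.

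Of 16 tested fast isoforms 3 fell and 0 rose (median log2 fold change -0.81, or -0.49 with scaling by library totals), both DESeq2 and the exact test called 9, and 14 of the 16 had all KO values below all WT values. All KO values lay below all WT values in 17.5% of all genes tested, and 1.69% were called lower. Actn3, the fast Z disc actinin, was at 2898, 3780.0 and 2863 RPKM in WT and 1341, 1437 and 1864 in KO (log2 fold change -1.36 ± 0.23 (SE), adjusted p = 0.0069). Tpm1, which encodes the alpha tropomyosin of fast fibers, was at 3734, 4143 and 3601 in WT and 1889.9, 2031 and 2163 in KO RPKM (log2 fold change -1.23 ± 0.19 (SE), adjusted p = 0.00534), and Mybpc2, the fast myosin binding protein, was at 1826, 2226 and 1359 in WT and 854, 583 and 934 in KO RPKM (log2 fold change -1.51 ± 0.27 (SE), adjusted p = 0.00886). Few of these calls were kept with fewer libraries, with 0 to 1 of the 16 genes called when 1 library was left out. Actn3 stayed called only without KO_11, Tpm1 only without WT_3, and Mybpc2 in none of the 6 fits (adjusted p 0.0129 to 0.0298).

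The main adult fast myosin, Myh4, was at 6077, 7548 and 4365 RPKM in WT and 2865, 2621 and 3665 in KO. It did not pass the quasi-likelihood test (log2 fold change -1.30 ± 0.27 (SE), adjusted p = 0.0184). DESeq2 and the exact test both called it (adjusted p = 6.24e-07 and 7.63e-05). Slow isoforms gave 0 calls of 9 by edgeR's quasi-likelihood test, with 2 at an unadjusted p of at most 0.05 and 1 gene called by both DESeq2 and edgeR's exact test, and 8 of the 9 had a log2 fold change above 0 (median 1.13). Myh7 was at 9.83, 0.122 and 14.1 RPKM in WT and 27.4, 44.03 and 9.97 in KO (adjusted p = 0.384), and the oxidative fast myosin Myh2 was at 109, 2.06 and 187 in WT and 418, 279 and 141 in KO RPKM (adjusted p = 0.467). WT_3 was the lowest by far in both, and the groups overlapped.

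**Figure D3:**
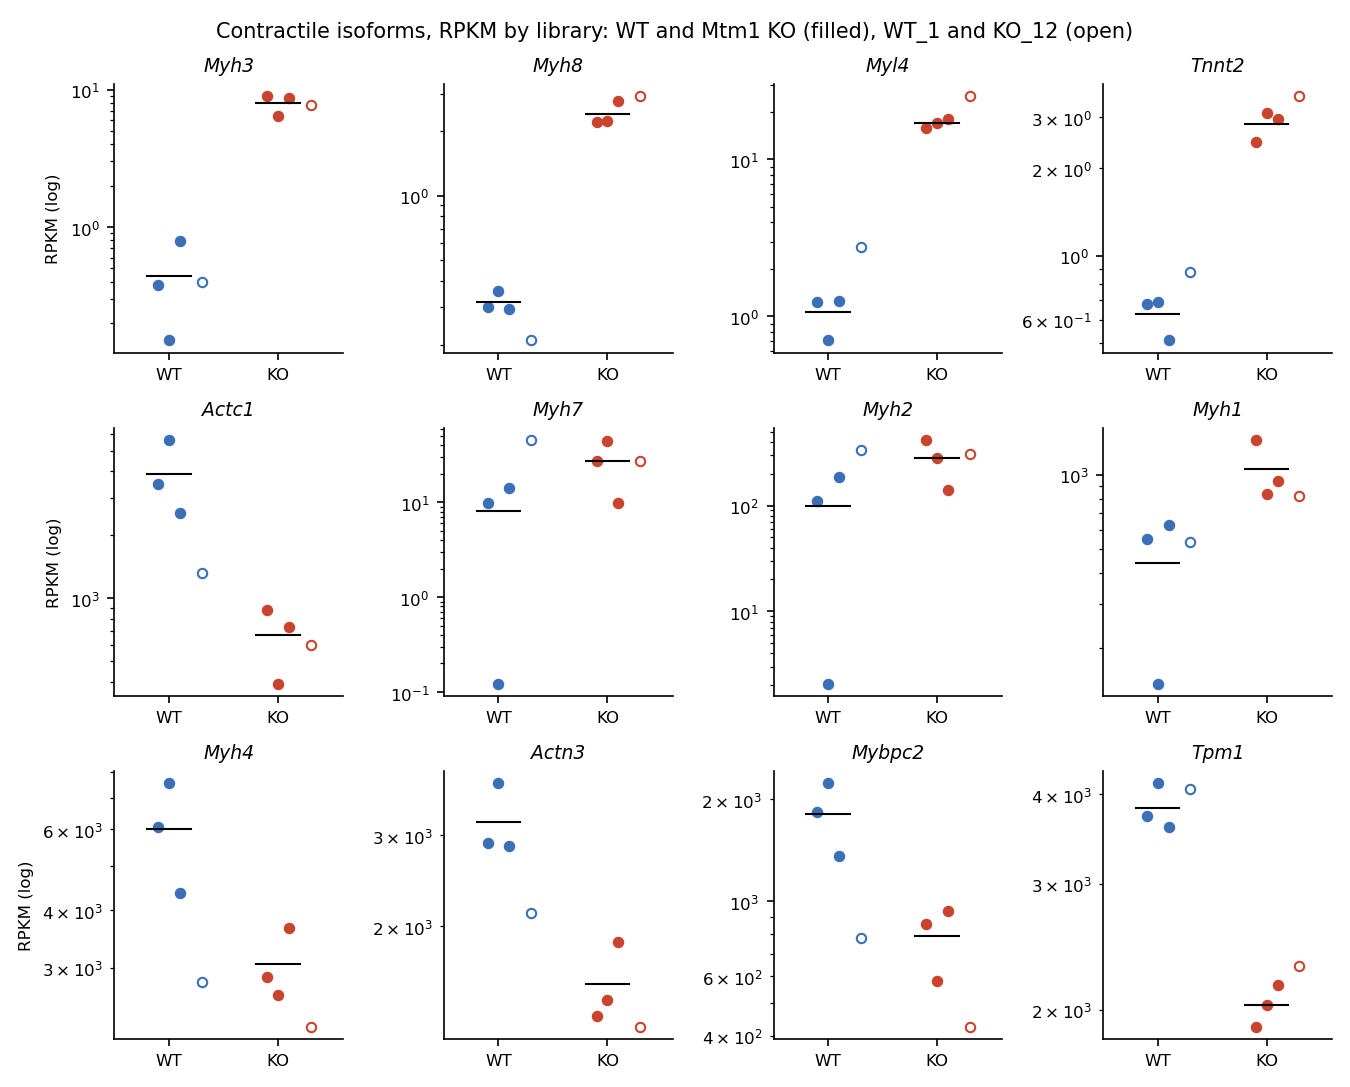
RPKM of 12 contractile protein genes on log axes, with WT (blue) and Mtm1 KO (red) libraries as filled points, their mean as a line, and the library labelled WT_1 and KO_12 as open points. Myh3, Myh8, Myl4 and Tnnt2 are higher in all KO libraries, Actc1, Actn3, Mybpc2 and Tpm1 are lower in all of them, and WT_3 is the low WT point in Myh7, Myh2 and Myh1.

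Shares of all counts show how the reads were spent. Myh4 took 3.66, 4.54 and 2.63% of all counts in WT and 1.72, 1.58 and 2.20% in KO. Tpm1 took 2.42, 2.69 and 2.34% in WT and 1.23, 1.32 and 1.40% in KO. Together with Ckm, Acta1 and Pvalb these were the genes that lost the largest share of counts. Myh1 gained the most, from a mean of 0.281% in WT to 0.671% in KO, followed by Des, from 0.252% to 0.615%. For Myh1, WT_3 was at 0.0911% against 0.3511% in WT_2 and 0.3998% in WT_4. Myh1 was not called by the quasi-likelihood test (adjusted p = 0.173), DESeq2 (adjusted p = 0.204) or the exact test (adjusted p = 0.122). Fhl1, Mb and Cryab gained the next largest shares. The groups overlapped in Mb, at 0.164, 0.0282 and 0.285% in WT and 0.364, 0.269 and 0.255% in KO. They did not overlap in the others, which is no separate result for genes picked by the change in this share. Shares of counts are relative, and a lower share of a few abundant genes raises that of the others.

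At the triad, 4 of 21 tested genes fell and 0 rose, the median log2 fold change was -0.59, or -0.27 with scaling by library totals, and 14 of the 21 had all KO values below all WT values. Among all genes tested, 1.69% were called lower and 17.5% had all KO values below all WT values. Jph1 and Jph2, the junctophilins that hold the T-tubule and the sarcoplasmic reticulum together, were at 12124, 17925 and 13158 and at 34941, 49912 and 36559.8 normalized counts in WT. In KO, Jph1 was at 7063, 6522 and 7709.8 and Jph2 at 21227, 19524 and 22214. Their log2 fold changes were -1.02 ± 0.17 (adjusted p = 0.00729) for Jph1 and -0.95 ± 0.17 (adjusted p = 0.00983) for Jph2. Speg, a kinase that binds myotubularin and works at the triad, was at 6209, 8429 and 7202 in WT and 4533, 3617 and 4018 in KO (log2 fold change -0.84 ± 0.15 (SE), adjusted p = 0.00998).

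Fsd2, a protein found at the junctional reticulum, was at 7753, 10026 and 7203 normalized counts in WT and 4263, 3688 and 3495 in KO (log2 fold change -1.13 ± 0.16 (SE), adjusted p = 0.00359). The list was left with 0 to 1 called genes when 1 library was left out, the calls of Jph1, Jph2 and Speg were lost in all 6 such fits (adjusted p 0.0115 to 0.0368), and that of Fsd2 without WT_2, KO_10 or KO_11 (adjusted p up to 0.0172). Ryr1, the calcium release channel, was at 67252, 88045 and 75341 in WT and 45867, 41936 and 50974 in KO and did not pass the quasi-likelihood test (log2 fold change -0.73 ± 0.16 (SE), adjusted p = 0.0217), nor did Cacna1s, its voltage sensor, at 19986, 26742 and 22044 in WT and 16866, 12627 and 16194 in KO (log2 fold change -0.59 ± 0.17 (SE), adjusted p = 0.0513). The groups did not overlap in either. Both DESeq2 and the exact test called 9 of the 21, Ryr1 among them (adjusted p = 4.11e-05 and 0.00249).

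Among genes of calcium uptake and buffering, 1 of 14 rose and 2 fell (median log2 fold change -0.09, or 0.21 with scaling by library totals). Sln, which encodes sarcolipin, a small inhibitor of the calcium pump, was at 51.5, 70.9 and 264 normalized counts in WT and 7237, 5530.5 and 15003 in KO (log2 fold change 6.17 ± 0.68 (SE), adjusted p = 0.00131), with the lowest KO library far above the highest WT library. Calm3, a calmodulin gene, was at 12014, 18102 and 11516 in WT and 4803, 3675 and 4932 in KO (log2 fold change -1.63 ± 0.21 (SE), adjusted p = 0.00216). The calcium pump Atp2a1 was at 779408, 974667 and 769539 in WT and 495404, 456049.5 and 576901 in KO. It did not pass the quasi-likelihood test (adjusted p = 0.0442), while DESeq2 and the exact test called it (adjusted p = 9.98e-05 and 0.00483).

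Several genes of denervated and immature fibers rose. Of 21 tested genes of denervation and the synapse, 6 rose and 0 fell, the median log2 fold change was 0.64, 15 of 21 had all KO values above all WT values, and 4 to 6 were called when 1 library was left out. The shares over all genes tested were 1.91% called higher and 18.7% with all KO values above all WT values. Chrna1, the alpha subunit of the muscle acetylcholine receptor, was at 638, 888 and 585 normalized counts in WT and 2596, 3009 and 4066 in KO (log2 fold change 2.20 ± 0.22 (SE), adjusted p = 0.000837). Chrnd, the delta subunit, was at 114, 100.5 and 90.2 in WT and 669, 552 and 1268 in KO (log2 fold change 3.03 ± 0.31 (SE), adjusted p = 0.00101), and Chrng, the fetal gamma subunit, at 14.4, 23.6 and 16.3 in WT and 159, 154 and 371 in KO (log2 fold change 3.65 ± 0.43 (SE), adjusted p = 0.00158). Chrnd and Chrng are neighbours on chromosome 1.

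Runx1, a transcription factor that denervated muscle induces, was at 111, 149 and 124 normalized counts in WT and 690.3, 747 and 1143 in KO (log2 fold change 2.75 ± 0.22 (SE), adjusted p = 0.000322). The adhesion molecule Ncam1 was at 145, 187 and 190.3 in WT and 503, 367 and 627 in KO (log2 fold change 1.52 ± 0.22 (SE), adjusted p = 0.00399), and it stayed called only without KO_10 (adjusted p otherwise up to 0.0155). Musk, the kinase that gathers receptors at the synapse, was at 39.1, 100.5 and 126 in WT and 76.3, 131 and 135 in KO, and the groups overlapped (adjusted p = 0.591). Gadd45a was at 1392, 1775 and 1257 in WT and 3321, 2612 and 8247 in KO without overlap. It did not pass the quasi-likelihood test (adjusted p = 0.0242) or DESeq2 (adjusted p = 0.0233), while the exact test called it (adjusted p = 0.000584).

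Myogenin, Myog, a transcription factor of muscle differentiation that binds E-boxes of receptor genes, was at 735, 811 and 728 normalized counts in WT and 2332, 2971 and 3476 in KO (log2 fold change 1.95 ± 0.16 (SE), adjusted p = 0.0004). Promoters of receptor genes that rose are shown for this reason, from RefSeq (GRCm38.p6), 250 bases before to 50 after the gene start, with the E-box CAGCTG in capitals. That of Chrna1 is chr2:73580289-73580588 on the minus strand and that of Chrng is chr1:87205561-87205860 on the plus strand.

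Chrna1 promoter: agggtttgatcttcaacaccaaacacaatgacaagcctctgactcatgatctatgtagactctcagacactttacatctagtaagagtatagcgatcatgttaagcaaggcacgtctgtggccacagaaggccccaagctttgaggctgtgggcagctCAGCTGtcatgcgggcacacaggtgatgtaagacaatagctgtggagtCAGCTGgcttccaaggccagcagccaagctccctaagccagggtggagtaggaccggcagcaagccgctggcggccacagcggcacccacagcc

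Chrng promoter: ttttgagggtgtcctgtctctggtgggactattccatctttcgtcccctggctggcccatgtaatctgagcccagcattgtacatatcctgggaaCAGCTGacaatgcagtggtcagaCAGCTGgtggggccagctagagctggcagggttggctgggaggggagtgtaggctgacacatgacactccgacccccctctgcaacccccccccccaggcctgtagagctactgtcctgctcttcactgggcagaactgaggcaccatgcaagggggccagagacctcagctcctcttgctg

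Each holds 2 copies of CAGCTG, whose letters read the same on both strands and also match the wider motif CANNTG. At least 2 copies were in 1.6% of 13415 promoters of the genes tested, in 2.7% of 298 promoters of genes that rose and in 3.6% of 251 of genes that fell. At least 1 copy was in 16.1%, 25.5% and 20.3%, and at least 1 CANNTG in 64.6%, 72.5% and 72.5%. These shares describe letters in a window and say nothing of binding.

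A long noncoding RNA gene on chromosome 1 from 20669882 to 20684298 (plus strand, GRCm38), listed as ENSMUSG00000099906 under the symbol mmu-mir-133b, rose as well. It is named here after its values were seen. It was at 24.7, 24.8 and 11.96 normalized counts in WT and 189, 328 and 339.5 in KO (log2 fold change 3.79 ± 0.35 (SE), adjusted p = 0.000602) and was called in all 6 fits with 1 library left out. The interval holds the hairpins of the muscle microRNAs miR-206 and miR-133b. Their mature 3-prime arms are shown from RefSeq with the seed, bases 2 to 8, in capitals.

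mmu-miR-206-3p: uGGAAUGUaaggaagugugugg

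mmu-miR-133b-3p: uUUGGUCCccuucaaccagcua

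The seeds of the arms differ. These libraries measured the long transcript, and the mature microRNAs were not measured.

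Regulators of muscle growth and satellite cells moved in both directions, with 2 of 20 tested genes higher and 2 lower (median log2 fold change -0.03, or 0.28 with scaling by library totals). Mstn, which encodes myostatin, an inhibitor of muscle growth, was at 820.4, 1578 and 818 normalized counts in WT and 213, 127 and 145 in KO (log2 fold change -2.73 ± 0.30 (SE), adjusted p = 0.00131). Ripply1, a transcriptional corepressor of somite development, had 1, 1 and 0 reads in WT and 60, 22 and 133 in KO (adjusted p = 0.00518). Calcr, the calcitonin receptor of quiescent satellite cells, had 32, 42 and 31 reads in WT and 3, 0 and 2 in KO (adjusted p = 0.00521). The call of Ripply1 was kept only without KO_10, and that of Calcr in none of the 6 fits with 1 library left out (adjusted p up to 0.0221 and 0.0249). Pax7, which marks satellite cells, was at 139, 113 and 97.9 normalized counts in WT and 35.4, 42.8 and 55.7 in KO without overlap. It did not pass the quasi-likelihood test (log2 fold change -1.39 ± 0.28 (SE), adjusted p = 0.0161). DESeq2 and the exact test called Pax7 (adjusted p = 0.000354 and 0.000447).

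Membrane repair genes were among those that rose, with 6 of 17 tested higher and 0 lower (median log2 fold change 0.66, 2 to 6 called when 1 library was left out). Ahnak2, a large scaffold at the costamere, was at 163, 148 and 198 normalized counts in WT and 1264, 2027 and 2361 in KO (log2 fold change 3.47 ± 0.25 (SE), adjusted p = 0.000214). Anxa4, a calcium-dependent phospholipid-binding protein, was at 511, 384 and 488 in WT and 1306, 1448 and 2082 in KO (log2 fold change 1.81 ± 0.20 (SE), adjusted p = 0.00131). S100a4, a calcium-binding protein, was at 229, 572 and 240.3 in WT and 1654, 2077 and 2552 in KO (log2 fold change 2.60 ± 0.35 (SE), adjusted p = 0.00296), and its call was lost without WT_4, KO_10 or KO_11 (adjusted p up to 0.0138). Anxa2 was at 2851, 2314 and 2475 in WT and 4772, 7949 and 6397 in KO (log2 fold change 1.32 ± 0.19 (SE), adjusted p = 0.00394) and stayed called only without KO_9 (adjusted p otherwise up to 0.0207).

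At the Z disc 1 of 29 genes rose and 2 fell, and at the costamere 0 of 23 rose and 2 fell. Over all genes tested, 1.91% rose and 1.69% fell, so counts this small say little of either list. Flnc, filamin C, was at 10812, 13045 and 13307 normalized counts in WT and 22834, 19886 and 22624 in KO (log2 fold change 0.81 ± 0.14 (SE), adjusted p = 0.00862). Capn3, the muscle calpain, was at 3355, 4667 and 3549.9 in WT and 2104, 2046 and 1863 in KO (log2 fold change -0.94 ± 0.15 (SE), adjusted p = 0.00614), and Trim55, a titin-bound ubiquitin ligase, at 1413, 2135 and 1450.4 in WT and 838, 457 and 666 in KO (log2 fold change -1.35 ± 0.24 (SE), adjusted p = 0.00943). All 3 calls were lost when any 1 library was left out (adjusted p 0.0111 to 0.0384). Tln2, a talin, and Ank1, an ankyrin, fell by 0.99 and 1.31 on the log2 scale (adjusted p = 0.00395 and 0.00344). Tln2 lost its call without WT_4, KO_10 or KO_11 (adjusted p up to 0.0181), and Ank1 without WT_4 or any 1 KO library (adjusted p up to 0.0136). Dmd, the dystrophin gene, was at 1673, 2096 and 1714 in WT and 1902, 1401 and 1888 in KO (adjusted p = 0.783). The list medians were -0.17 and -0.23, and 0.15 and 0.09 with scaling by library totals.

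Of 16 genes of membrane excitability, 2 fell and 0 rose (median log2 fold change -0.17, or 0.15 with scaling by library totals). Among all genes tested, 1.69% fell. Scn4a, the muscle sodium channel, was at 8965, 11291 and 8791 normalized counts in WT and 5706, 4581 and 5153 in KO (log2 fold change -0.91 ± 0.15 (SE), adjusted p = 0.00678), and its call was lost in all 6 fits with 1 library left out (adjusted p 0.0118 to 0.0267). Kcna7, a potassium channel, was at 7318, 6260.2 and 7491 in WT and 4081, 3361 and 2769 in KO (log2 fold change -1.05 ± 0.16 (SE), adjusted p = 0.00553), with its call lost without WT_2, WT_4, KO_10 or KO_11 (adjusted p up to 0.0254). The chloride channel Clcn1 was at 3416, 3945 and 3754 in WT and 3119, 2041 and 2486 in KO (adjusted p = 0.0623).

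Stress genes rose in several families. Of 21 AP-1 and immediate early genes, 3 rose and 0 fell, 19 had a log2 fold change above 0 (median 0.80), and 2 to 3 were called when 1 library was left out. Fosl1, an AP-1 subunit, had 0, 2 and 0 reads in WT and 101, 74 and 147 in KO (adjusted p = 0.00119). Egr2, a zinc finger transcription factor, was at 59.7, 42.6 and 63.1 normalized counts in WT and 288, 449 and 227 in KO (log2 fold change 2.54 ± 0.30 (SE), adjusted p = 0.00158). Egr1 was at 822, 890.1 and 986 in WT and 2691, 4621 and 2231 in KO (log2 fold change 1.82 ± 0.25 (SE), adjusted p = 0.00335), with its call lost without any 1 WT library (adjusted p up to 0.0149). Atf3 was at 335, 277 and 461 in WT and 1761, 648 and 639 in KO without overlap. It did not pass the quasi-likelihood test (adjusted p = 0.0367), while DESeq2 and the exact test called it (adjusted p = 0.000304 and 0.00272).

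The AP-1 motif TGANTCA, searched on both strands, was in 5.3% of 13415 promoters of all genes tested, in 12.4% of 298 promoters of genes that rose and in 5.2% of 251 promoters of genes that fell. At least 2 copies were in 0.2%, 2.0% and 0.0%. The 6 genes that rose with 2 copies were Serpinb8, Srxn1, Dclk1, Sprr1a, Fam214b and Emp1. Sprr1a, an epithelial envelope protein that injured nerve and stressed heart also make, had 0, 0 and 0 reads in WT and 49, 96 and 150 in KO (adjusted p = 0.00249). Its promoter (GRCm38.p6, chr3:92485832-92486131, minus strand) is shown with both copies in capitals.

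Sprr1a promoter: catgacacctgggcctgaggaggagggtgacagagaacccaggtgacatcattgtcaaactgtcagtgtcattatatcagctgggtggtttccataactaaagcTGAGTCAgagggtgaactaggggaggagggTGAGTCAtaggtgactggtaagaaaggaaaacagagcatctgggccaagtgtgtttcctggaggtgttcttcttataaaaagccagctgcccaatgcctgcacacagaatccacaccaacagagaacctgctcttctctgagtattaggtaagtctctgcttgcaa

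Metallothioneins, small metal-binding proteins that metals and glucocorticoids induce, rose together. Mt2 was at 233, 324 and 194 normalized counts in WT and 3438, 6276 and 11313 in KO (log2 fold change 4.81 ± 0.44 (SE), adjusted p = 0.000583), and Mt1 was at 483, 525 and 447 in WT and 2699, 4722 and 6838 in KO (log2 fold change 3.29 ± 0.31 (SE), adjusted p = 0.000602). They were the called members of 12 glucocorticoid targets tested (median log2 fold change 0.60). Mt3, their neighbour on chromosome 8, named after its values were seen, was at 80.3, 85.1 and 46.8 in WT and 997, 1941 and 2381 in KO (log2 fold change 4.65 ± 0.36 (SE), adjusted p = 0.000274). The promoters of Mt1 (chr8:94178839-94179138) and Mt2 (chr8:94172368-94172667), both on the plus strand, are shown with the metal response core TGCACNC or TGCGCNC, on either strand, in capitals.

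Mt1 promoter: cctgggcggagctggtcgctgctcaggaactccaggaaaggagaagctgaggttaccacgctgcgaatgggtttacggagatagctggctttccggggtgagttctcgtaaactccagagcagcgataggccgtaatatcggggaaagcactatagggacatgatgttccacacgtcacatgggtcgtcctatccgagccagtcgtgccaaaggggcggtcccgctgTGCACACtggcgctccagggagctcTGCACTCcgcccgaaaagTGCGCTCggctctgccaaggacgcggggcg

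Mt2 promoter: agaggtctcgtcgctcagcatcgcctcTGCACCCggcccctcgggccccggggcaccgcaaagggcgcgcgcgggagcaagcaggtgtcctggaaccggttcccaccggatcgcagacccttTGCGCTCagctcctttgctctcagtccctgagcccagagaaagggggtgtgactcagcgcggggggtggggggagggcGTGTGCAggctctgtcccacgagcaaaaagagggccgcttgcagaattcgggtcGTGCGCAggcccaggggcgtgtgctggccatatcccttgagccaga

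The core was found 3 times in the window of Mt1 and 4 times in that of Mt2. At least 2 matches were in 11.1% of the promoters of all genes tested, 6.7% of those of genes that rose and 14.3% of those of genes that fell.

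Of 13 p53 targets, 2 rose and 0 fell (median log2 fold change 0.63). Cdkn1a, the cell cycle inhibitor p21, was at 828, 807 and 1047 normalized counts in WT and 8887, 8431 and 16470.5 in KO (log2 fold change 3.66 ± 0.28 (SE), adjusted p = 0.000274). Eda2r, a receptor of the TNF receptor family, was at 129.7, 322 and 257 in WT and 2543, 1723 and 3527 in KO (log2 fold change 3.46 ± 0.36 (SE), adjusted p = 0.00107). Both were called in all 6 fits with 1 library left out. Srxn1, which repairs oxidized peroxiredoxins, was the called member of 13 NRF2 targets, at 596, 675 and 646 in WT and 1401, 1416 and 1995 in KO (log2 fold change 1.33 ± 0.16 (SE), adjusted p = 0.00202), with its call lost without WT_4 (adjusted p = 0.012). The share called over all genes tested was 3.6%. Of 21 genes of the integrated and ER stress responses 0 were called by the quasi-likelihood test, 9 had an unadjusted p of at most 0.05, and 1 was called by both DESeq2 and the exact test (median log2 fold change 0.38). Among all 14740 genes tested, the last 2 counts were 4431 and 1371. Hspa5, the main chaperone of the ER, was at 6326, 7070.0 and 5275 in WT and 8248, 7969.5 and 8195 in KO (adjusted p = 0.0974).

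Polyamine genes were among those that fell, with 3 of 12 tested lower and 0 higher and 2 to 3 called when 1 library was left out. Smox, spermine oxidase, was at 7482, 8739 and 8384 normalized counts in WT and 1676, 1668 and 2236 in KO (log2 fold change -2.14 ± 0.16 (SE), adjusted p = 0.000228). Amd1, adenosylmethionine decarboxylase, which supplies the propylamine groups of spermidine and spermine, was at 8275, 14076 and 13164 in WT and 1575, 1821 and 1968 in KO (log2 fold change -2.73 ± 0.21 (SE), adjusted p = 0.000274). Amd2, a near copy of Amd1 whose reads may be shared with it, was at 52.5, 82.7 and 91.3 in WT and 13.96, 15.8 and 18.9 in KO (log2 fold change -2.21 ± 0.36 (SE), adjusted p = 0.00668), and stayed called only without WT_2 (adjusted p otherwise up to 0.0269). Over all 12 genes the median log2 fold change was 0.10.

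Some genes of glycogen metabolism fell. Of 33 genes of glycolysis and glycogen, 6 fell and 0 rose, the median log2 fold change was -0.43, or -0.11 with scaling by library totals, 19 had all KO values below all WT values, and 0 to 3 were called when 1 library was left out. Among all genes tested, 1.69% were called lower and 17.5% had all KO values below all WT values. Phosphorylase kinase activates glycogen phosphorylase, and its gamma subunit Phkg1 was at 18031, 24703 and 19349.7 normalized counts in WT and 8049, 8151 and 9359 in KO (log2 fold change -1.28 ± 0.16 (SE), adjusted p = 0.00203). Its alpha subunit Phka1 was at 19552, 25334 and 19664 in WT and 8513, 7842 and 10834 in KO (log2 fold change -1.25 ± 0.17 (SE), adjusted p = 0.00344), and the phosphorylase Pygm at 187889, 218718 and 176081 in WT and 78569, 82348 and 97953 in KO (log2 fold change -1.17 ± 0.17 (SE), adjusted p = 0.00438). Ppp1r3a, which brings a phosphatase to glycogen, was at 5349, 6342 and 6754 in WT and 3398, 2368 and 3107 in KO (log2 fold change -1.06 ± 0.17 (SE), adjusted p = 0.00553).

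All 4 of these calls were lost in at least 1 fit with 1 library left out, while the log2 fold changes stayed between -1.399 and -0.907. Such fits hold fewer libraries, so a lost call does not show that it rested on the library left out. The call of Phkg1 was lost without KO_10 (adjusted p = 0.0104), that of Phka1 without WT_4, KO_9 or KO_10 (up to 0.0145), that of Pygm without WT_2, WT_4, KO_9 or KO_10 (up to 0.0212), and that of Ppp1r3a in all fits but the one without KO_9 (up to 0.0254). Eno3, the muscle enolase, was at 195810.1, 237439 and 191363 in WT and 116278, 116360.0 and 130964 in KO (adjusted p = 0.0188), Pgam2 at 79476, 93900.0 and 79083 in WT and 44394, 58618 and 49092 in KO (adjusted p = 0.0232), and the creatine kinase Ckm at 771082, 978484 and 808139 in WT and 380848, 480277 and 507548 in KO (adjusted p = 0.0227). The groups did not overlap in Eno3, Pgam2 or Ckm, which did not pass the quasi-likelihood test. Both DESeq2 and the exact test called all 3 (adjusted p up to 3.27e-05 and 0.00285). They called 14 of the 33 glycolysis and glycogen genes.

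Oxidative metabolism gave few calls. By the quasi-likelihood test 0 of 26 fatty acid oxidation genes, 0 of 14 mitochondrial biogenesis genes, 0 of 14 NAD salvage genes and 0 of 13 protein genes of the mitochondrial genome passed, while 5, 4, 4 and 4 had an unadjusted p of at most 0.05 and 1, 0, 1 and 2 were called by both DESeq2 and the exact test. Their median log2 fold changes of -0.04, -0.19, -0.04 and -0.30 turned to 0.27, 0.12, 0.27 and 0.02 with scaling by library totals. Circadian clock genes gave 0 calls of 17 as well, with 9 at an unadjusted p of at most 0.05 and 2 called by both other tools. Such counts are to be read against all 14740 genes tested, of which 4431 had an unadjusted p this low. Both other tools called 1371 of the 14740. Of 91 nuclear genes of the respiratory chain, Ndufaf5, a complex I assembly factor, was the only call, at 1314, 1450.4 and 1511 normalized counts in WT and 813, 753 and 653 in KO (log2 fold change -0.95 ± 0.13 (SE), adjusted p = 0.00335), and it was lost without WT_3, WT_4, KO_10 or KO_11 (adjusted p up to 0.0174). Ppargc1a, a coactivator of mitochondrial genes, was at 1126, 572 and 947 in WT and 605, 613 and 529 in KO (adjusted p = 0.108). Nmrk2, a muscle nicotinamide riboside kinase, was at 651, 706 and 2849.7 in WT and 4339, 3093 and 4685 in KO (adjusted p = 0.0809), and without WT_4, the highest of its WT libraries, it was called (adjusted p = 0.00145).

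Most ribosomal protein genes had higher values in KO without passing the quasi-likelihood test. Of 85 tested, 74 had a log2 fold change above 0 (median 0.29, or 0.60 with scaling by library totals) and 1 rose and 1 fell. An unadjusted p of at most 0.05 was found for 36, both DESeq2 and the exact test called 6, and 0 to 3 were called when 1 library was left out. Rpl3l, the form of the large subunit protein L3 that striated muscle makes, was at 15102, 16680.2 and 16339 normalized counts in WT and 9581, 8949 and 9716 in KO (log2 fold change -0.77 ± 0.12 (SE), adjusted p = 0.00606). Rpl3, the ubiquitous form, was at 2619.6, 2280.2 and 2455 in WT and 3999, 4054 and 5108 in KO (log2 fold change 0.84 ± 0.14 (SE), adjusted p = 0.00703). On the RPKM scale, which is set by library totals, Rpl3l was at 319.5 in WT and 232.9 in KO on average, and Rpl3 at 25.8 and 57.1. Both calls were lost when any 1 library was left out (adjusted p 0.0132 to 0.033). Of 38 proteasome genes 0 were called by the quasi-likelihood test, 33 had a log2 fold change above 0 (median 0.35), 20 had an unadjusted p of at most 0.05, and 1 was called by both DESeq2 and the exact test. Among all 14740 genes tested, 4431 had an unadjusted p of at most 0.05 and 1371 were called by both of these tools.

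Atrophy genes passed in few cases. Of 21 tested, Map1lc3a, an LC3 protein of autophagosomes, rose from 5395, 5993 and 6599 normalized counts in WT to 11050.4, 11608 and 15717 in KO (log2 fold change 1.09 ± 0.17 (SE), adjusted p = 0.00521). Foxo4, a transcription factor of the FoxO family, was at 4418, 4594 and 4651 in WT and 2554, 2259 and 2763 in KO (log2 fold change -0.85 ± 0.12 (SE), adjusted p = 0.00419). Foxo4 lost its call in all 6 fits with 1 library left out and Map1lc3a in all but that without KO_9 (adjusted p up to 0.0221). The ubiquitin ligases Fbxo32, at 3476, 2651 and 5632 in WT and 7002, 6576 and 12144 in KO (adjusted p = 0.0444), and Trim63, at 5922, 6647 and 8104 in WT and 10218, 9446 and 18563 in KO (adjusted p = 0.0526), did not pass the quasi-likelihood test. DESeq2 and the exact test called Fbxo32 (adjusted p = 0.00113 and 0.00727). Trim63 was called by DESeq2 and not by the exact test (adjusted p = 0.00415 and 0.0152).

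In the growth hormone axis 1 of 17 genes fell and 0 rose, against 1.69% and 1.91% of all genes tested. Stat5b, a transcription factor that the growth hormone receptor activates, was at 5506, 5683 and 6022 normalized counts in WT and 2849, 2425 and 2747 in KO (log2 fold change -1.10 ± 0.12 (SE), adjusted p = 0.00131), called in all 6 fits with 1 library left out. Ghr, the receptor, was at 4296, 4206 and 3466 in WT and 2586, 1723 and 1979.8 in KO (adjusted p = 0.0109), just short of the threshold, and passed without KO_9 (adjusted p = 0.00817). With all libraries of the comparison, DESeq2 and the exact test called Ghr (adjusted p = 1.06e-05 and 0.000204). Igf1 was at 2083, 1883 and 2121 in WT and 1817, 2815 and 1543 in KO (adjusted p = 0.961), with overlap, as were Socs2 (adjusted p = 0.652) and Socs3 (adjusted p = 0.958). Among 10 steroid and related receptors tested, Rxrg, a retinoid X receptor, fell from 1582, 2329.9 and 1708 to 754, 544 and 728 (log2 fold change -1.47 ± 0.19 (SE), adjusted p = 0.00233). The estrogen receptor Esr1 was at 707, 661 and 926 in WT and 549.8, 440.2 and 408 in KO without overlap. It did not pass the quasi-likelihood test (adjusted p = 0.0291), while DESeq2 and the exact test called it as lower in KO (adjusted p = 0.00302 and 0.00632).

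In the pathway of myotubularin itself 1 of 24 genes rose and 1, Mtm1, fell (median log2 fold change -0.16, or 0.16 with scaling by library totals). The share called over all genes was 3.6%. Vac14, a scaffold of the PIKfyve lipid kinase complex, was at 764, 636 and 708 normalized counts in WT and 1163, 1298 and 1346 in KO (log2 fold change 0.85 ± 0.13 (SE), adjusted p = 0.00475), and stayed called only without KO_9 (adjusted p otherwise up to 0.0237). Dnm2 was at 1209, 1209 and 1295 in WT and 1422, 1458 and 1561 in KO (adjusted p = 0.162). Bin1 was at 23710.4, 32026 and 23922 in WT and 25644, 30328 and 35302 in KO (adjusted p = 0.503), and Pik3c2b at 872, 766 and 1076 in WT and 847, 629 and 542 in KO (adjusted p = 0.171). The groups overlapped in Bin1 and Pik3c2b and not in Dnm2. Of the 12 genes tested within 1 Mb of Mtm1, BC023829 was called beside it, at 839, 1105 and 939 in WT and 528, 349 and 487 in KO (log2 fold change -1.08 ± 0.18 (SE), adjusted p = 0.00717), and was called in 0 of the 6 fits with 1 library left out. The paralog Mtmr1, which lies next to Mtm1, had a log2 fold change of -0.29 ± 0.21 (adjusted p = 0.399).

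Genes of profibrotic signals and of the matrix were read as separate lists. Of 22 profibrotic and matricellular genes 6 rose and 0 fell (median log2 fold change 0.89, 3 to 5 called when 1 library was left out), and of 32 collagens and matrix genes 2 rose and 0 fell (median 0.24). The difference between the lists was not tested. Ctgf, connective tissue growth factor, was at 1299, 1450.4 and 1263 normalized counts in WT and 6122, 6786 and 5555 in KO (log2 fold change 2.20 ± 0.13 (SE), adjusted p = 0.000165). Cilp, a matrix protein that binds TGF-beta, was at 2123, 2727 and 2299.5 in WT and 25277, 19113 and 24252 in KO (log2 fold change 3.26 ± 0.17 (SE), adjusted p = 7.99e-05). The lowest KO library was above the highest WT library in both, which the naming rule required, and Cilp had the lowest p of all genes that rose.

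Thbs4, a thrombospondin of tendon and muscle, was at 5429, 6992 and 5335 normalized counts in WT and 12262, 14955 and 13271 in KO (log2 fold change 1.19 ± 0.16 (SE), adjusted p = 0.00249), with its call lost without WT_2 or WT_4 (adjusted p up to 0.016). Timp1, an inhibitor of matrix metalloproteinases, was at 95.7, 48.5 and 56.5 in WT and 747, 1309 and 1044 in KO (log2 fold change 3.94 ± 0.30 (SE), adjusted p = 0.000266), and Col8a1, a network-forming collagen, at 401, 383 and 491 in WT and 2599, 4345 and 1886 in KO (log2 fold change 2.79 ± 0.29 (SE), adjusted p = 0.00105). Col1a1 was at 41569, 60449 and 50652 in WT and 33294, 62388 and 29955 in KO (adjusted p = 0.541) and Col3a1 at 60603, 64299.8 and 56459.6 in WT and 55027, 41922 and 38394 in KO (adjusted p = 0.137), neither of which passed.

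**Figure D4:**
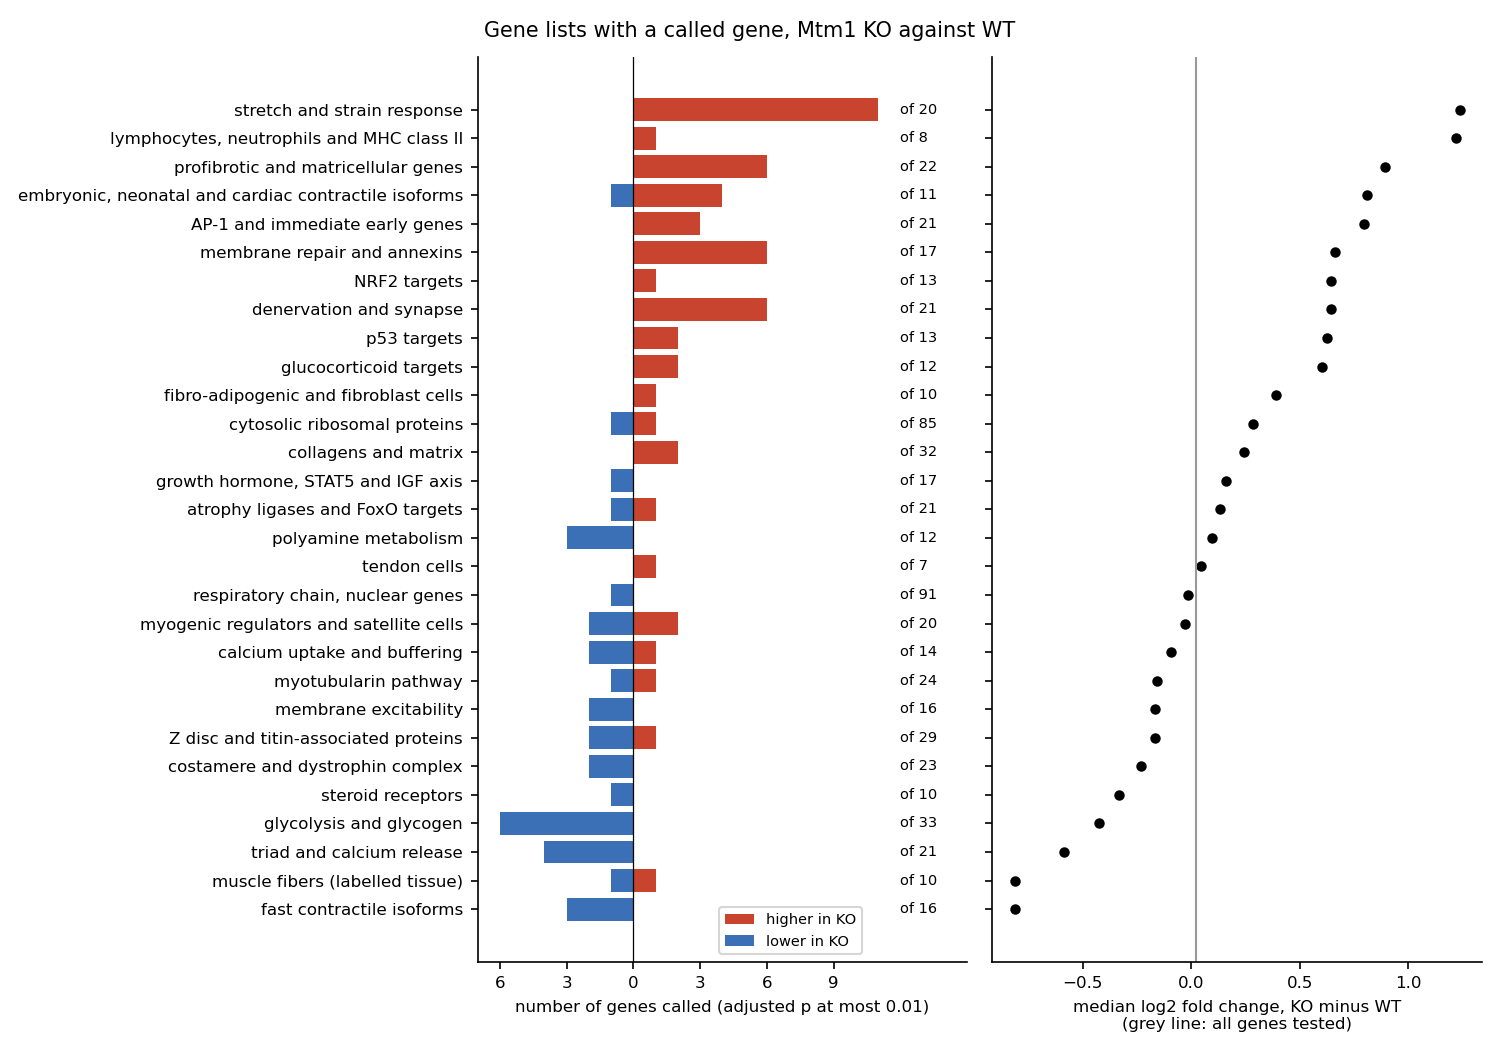
For each gene list with a called gene, the number of genes called higher (red, to the right) or lower (blue, to the left) in Mtm1 KO of the number tested, and the median log2 fold change over the genes tested, with the grey line at 0.023 for all genes. The stretch and strain list has the most calls, 11 of 20, and the fast contractile and triad lists lie to the left of the line. The lists were written with earlier results of these data known.

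Markers of other cell types were followed beside these groups. Of 16 macrophage and monocyte markers 15 had a log2 fold change above 0 (median 0.69), 0 were called by the quasi-likelihood test, 10 had an unadjusted p of at most 0.05, and 3 were called by both DESeq2 and the exact test. Their summed level was 118.7 to 146.8 RPKM in WT and 205.7 to 308.2 in KO, with none at 0. Cd68 was at 221, 136 and 125 normalized counts in WT and 288, 611 and 366 in KO (adjusted p = 0.0234), while the resident macrophage marker Emr1 was at 195, 219.9 and 204 in WT and 232, 224 and 234 in KO (adjusted p = 0.546). DESeq2 and the exact test called Cd68 (adjusted p = 0.00022 and 0.000868) and not Emr1. Among all 14740 genes tested, 4431 had an unadjusted p of at most 0.05 and 1371 were called by both of these tools. Of lymphocyte, neutrophil and MHC class II markers, 8 of 17 passed the count filter and H2-Aa rose (log2 fold change 1.38 ± 0.25 (SE), adjusted p = 0.00943), with its call kept without KO_9 and lost without any other 1 library (adjusted p up to 0.0334). Without KO_9, 4 of the 8 were called, H2-Aa and, named after their values were seen, H2-Ab1, H2-Eb1 and Cd74, and both DESeq2 and the exact test called 4 with all 6 libraries. The summed level of that list was 77.05 to 126 RPKM in WT and 203.2 to 486.8 in KO. Of fibroblast and fibro-adipogenic markers, Mfap5 rose, 1 of 10 (log2 fold change 1.26 ± 0.21 (SE), adjusted p = 0.00754), likewise called only without KO_9 (adjusted p up to 0.0326), and the summed level was 475.5 to 635.2 RPKM in WT and 887.3 to 1054.0 in KO. Of these 10, 8 had a log2 fold change above 0 and 2 below (median 0.39). The RPKM scale is set by library totals, which moved the median log2 fold change over all genes from 0.023 to 0.334. Summed levels also weigh abundant members most. The part of such cells in the matrix, membrane repair and stress genes above was not tested.

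Endothelial, fat, red blood, Schwann and proliferating cell markers gave 0 calls by the quasi-likelihood test, of 13, 11, 6, 8 and 16 genes. The test gave 2, 0, 0, 1 and 2 of them an unadjusted p of at most 0.05, and 0, 0, 0, 0 and 1 were called by both DESeq2 and the exact test. Their summed levels overlapped between the groups. Adipoq was at 3121, 193 and 353 normalized counts in WT and 2880.3, 1226 and 1365 in KO, and without WT_2 it passed (adjusted p = 0.00931). Without WT_2, 5 of the 11 fat cell markers were called higher in KO, and without any other 1 library 0 were. Of tendon markers Egr1 was the only call of 7, and Scx, which marks tendon cells, was at 279, 248 and 221 in WT and 394, 854 and 446 in KO (adjusted p = 0.0271). Markers of muscle fibers, the labelled tissue, summed to 94000 to 111000 RPKM in WT and 70150.0 to 76380.0 in KO.

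Among the 10 genes with the lowest p that rose and were called in every fit with 1 library left out were, beside those already given, Tubb6, Cpne2 and Tnfrsf23. Tubb6, a beta tubulin of regenerating and dystrophic fibers, was at 629, 779 and 709 normalized counts in WT and 3712, 3636 and 5114 in KO (log2 fold change 2.56 ± 0.17 (SE), adjusted p = 0.000214). Cpne2, a calcium-dependent membrane-binding protein, was at 320.1, 368 and 335 in WT and 3183, 2775 and 5058 in KO (log2 fold change 3.43 ± 0.23 (SE), adjusted p = 0.000214), and Tnfrsf23, a decoy receptor of TRAIL, at 222, 238 and 272 in WT and 1045, 924 and 1257 in KO (log2 fold change 2.14 ± 0.16 (SE), adjusted p = 0.000228).

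Among the 10 that fell were Mtm1, Smox and Amd1, given above. Of the others, 3 had no protein product in the annotation. B230312C02Rik was at 5249.5, 7744 and 5136 normalized counts in WT and 313, 224 and 274 in KO (log2 fold change -4.48 ± 0.22 (SE), adjusted p = 7.99e-05). 2310065F04Rik was at 3255, 4777 and 5355 in WT and 844, 726 and 809 in KO (log2 fold change -2.49 ± 0.19 (SE), adjusted p = 0.000274), and C130080G10Rik, annotated as antisense, at 862, 1963 and 842 in WT and 27.9, 15.8 and 14.4 in KO (log2 fold change -5.97 ± 0.44 (SE), adjusted p = 0.000228). The protein genes were Mpp3, a membrane scaffold, at 597, 651 and 702 in WT and 172, 162 and 172 in KO (log2 fold change -1.94 ± 0.14 (SE), adjusted p = 0.000214), Hrasls, a phospholipase, at 1582, 1586 and 1706 in WT and 535, 539.7 and 542 in KO (log2 fold change -1.59 ± 0.11 (SE), adjusted p = 0.000214), Arhgap20, a GTPase activator, at 859, 987 and 1027 in WT and 368, 335 and 371 in KO (log2 fold change -1.42 ± 0.13 (SE), adjusted p = 0.000583), and Fam131a, at 3395, 4525 and 4219 in WT and 1231, 1186 and 1389 in KO (log2 fold change -1.67 ± 0.15 (SE), adjusted p = 0.000512). The groups did not overlap in any of them, as the naming rule required.

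Called genes that lie within 100 kb of each other formed 48 runs, of which 42 were pairs and 36 held genes of only 1 direction. The myosin cluster on chromosome 11 held a mixed run from 67078300 to 67308634, in which Myh3 and Myh8 rose and the noncoding genes 2310065F04Rik and Gm12300 between them fell. On chromosome 2, from 114013563 to 114068324, A530058N18Rik, Actc1 and C130080G10Rik all fell. S100a13, S100a4 and S100a6 on chromosome 3 rose together, as did Mt3, Mt2 and Mt1 on chromosome 8 and Serpinb6a, Tubb2a and Tubb2b on chromosome 13. The strand setting of the counts is not given in the sources used here, and overlapping genes may share reads.

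How the check libraries compare was read over the 531 called genes on a scale on which the WT mean is 0 and the KO mean is 1. KO_12 lay at a median of 1.24 and was nearer to the KO mean in 508 of the genes (95.67%). The library labelled WT_1 lay at a median of 0.334 and was nearer to the KO mean in 196 (36.91%). Its level was 862 normalized counts of Ankrd1 and 717 of Timp1, between the groups, and 149 of Sln, 83.4 of Chrnd, 641 of Myog and 13613 of Smox, within the WT libraries or farther from KO than they were. With both libraries added 211 genes were called, with KO_12 alone 349, and with WT_1 alone 120. With both added, 5 embryonic, neonatal and cardiac isoforms, 5 denervation and synapse genes and 3 polyamine genes were called, against 0 triad genes, 0 genes of membrane excitability and 2 genes of glycolysis and glycogen.

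In the mice given tamoxifen, which share no library with the comparison above, 979 of 14563 genes were called between KO_TAM and WT_TAM (6.72%), 498 higher (3.42%) and 481 lower (3.3%) in KO_TAM. Of the 531 genes, 524 were tested there, 523 had the same sign and 365 were called in the same direction (69.66% of those tested, and 37.28% of the genes called with tamoxifen), and 0 were called in the opposite direction. WT_TAM_7 and WT_TAM_8 were closer to each other than any other pair of the 16 libraries, differing 3.23 times as much as read sampling alone would give (median chi-square over genes) against 8.29 times in the next pair. Without WT_TAM_7 or WT_TAM_8, 554 or 538 genes were called, and 274 or 266 of the 531.

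Sln was at 143, 99.1, 74.2 and 42.6 normalized counts in WT_TAM and 6303, 21153, 9316 and 5881 in KO_TAM (log2 fold change 6.89, adjusted p = 4.63e-05). Ankrd1 was at 808, 383, 757 and 680.1 in WT_TAM and 8038, 16466, 11209.7 and 6871 in KO_TAM (log2 fold change 4.02, adjusted p = 4.74e-05), and Krt18 at 4.84, 9.01, 23.9 and 4.73 in WT_TAM and 504, 1439, 809.7 and 384 in KO_TAM (log2 fold change 6.19, adjusted p = 9.76e-05). The lowest KO_TAM library was above the highest WT_TAM library in all 3 genes.

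For the polyamine genes Amd1 and Smox the difference with tamoxifen was smaller in size than without it, which was not shown to be more than the spread. Both were among the 10 genes of lowest p that fell without tamoxifen. Normalized counts of the treated libraries, here and above, were scaled apart from those of the untreated ones, so their levels cannot be set against each other. Amd1 was at 2563, 3552, 2948 and 3036 in WT_TAM and 1390.1, 1184, 1338 and 2228 in KO_TAM (log2 fold change -0.98, adjusted p = 0.00567), and Smox at 3598, 3835, 2526 and 2513 in WT_TAM and 1664, 1485, 1251 and 1697 in KO_TAM (log2 fold change -1.03, adjusted p = 0.00218). Tested as an interaction over 14 libraries, the difference between the untreated and the treated KO effect passed for 0 of 15556 genes, Amd1 and Smox included, by edgeR's quasi-likelihood test, with 664 at an unadjusted p of at most 0.05 and a lowest adjusted p of 0.27.

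**Figure D5:**
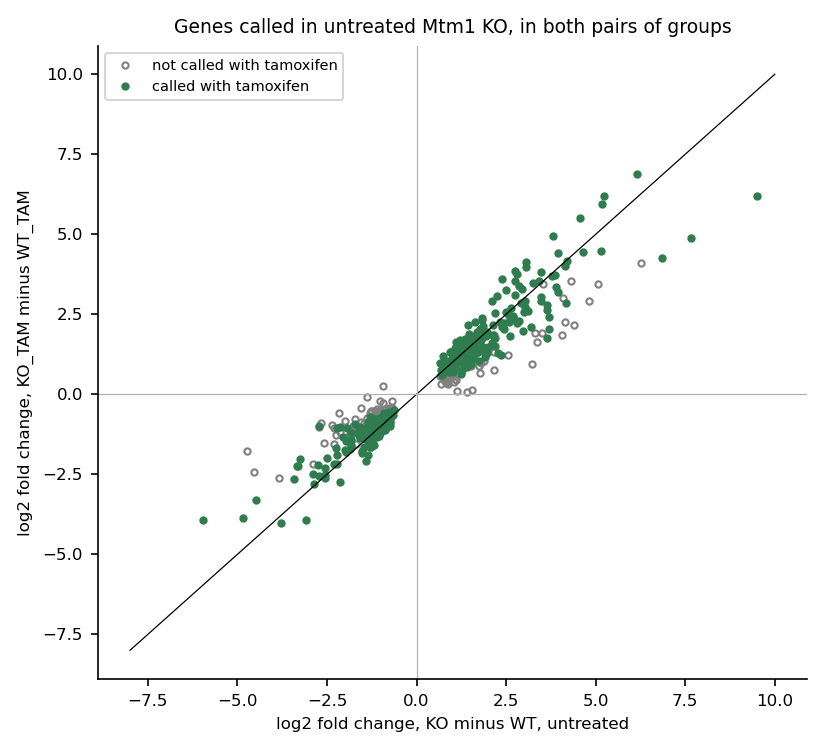
Log2 fold change of KO minus WT without drug (horizontal) against KO_TAM minus WT_TAM (vertical) for the genes called without drug, with filled green points for genes also called with tamoxifen and open grey points for the others, and the line of equal change. Of 524 genes, 523 lie in the quadrants of equal sign.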

How the data were processed

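Libraries were made with the Illumina TruSeq RNA kit from quadriceps total RNA, and the submitters' processing notes list STAR 2.5.0c, Cufflinks 2.2.1, bcl2fastq 2.17 and the build GRCm38. The authors deposited a table of raw read counts per gene and a table of RPKM values, which are scaled to library total and gene length, both over 41388 genes and 16 libraries. Counts were tested with the quasi-likelihood test of edgeR 4.0.16 in R 4.3.3, after TMM normalization and filterByExpr (count minimum of 10, total of 15), on 3 KO and 3 WT libraries. P-values were adjusted by Benjamini-Hochberg and genes called at 0.01. Log2 fold changes are KO minus WT, and the RPKM values were used for levels between genes. Each SE was derived from the quasi-likelihood test, as the size of the log2 fold change over the square root of the F statistic. It is not a separate estimate of the spread. The test was checked on simulated data for this comparison of 14740 genes, in which it called 97% of 200 genes changed by a log2 of 2, and 2 unchanged genes. The changed genes were drawn from those with a mean of at least 50 reads. Recovery of smaller changes, or in scarcer genes, was not checked. An exact permutation test of 3 against 3 libraries cannot go below 0.1. Alternatives were DESeq2 1.42.0, the edgeR exact test, limma 3.58.1 on log2(RPKM + 0.1) or log2(RPKM + 1), other scalings, no filter, other sets of libraries and each library left out. Leaving out WT_TAM_7 or WT_TAM_8, and the threshold of 0.05 for the interaction, were added after seeing the data. Named genes are Mtm1 and key members of the lists, the 10 genes of lowest p in each direction that stayed called when each library was left out, did not overlap and had a mean of at least 50 normalized counts in 1 group, up to 4 called members of each list, and the 5 genes with the largest rise and fall in their share of counts. Members and lists were chosen with earlier results of these data known. The E-box CAGCTG and the metal response core were searched after values were seen. Promoters matched 10464 of 14730 symbols. Total counts of the tested libraries were 26005229 to 28338738. A few genes counted in the lists are not reported here.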

Additional observations from a re-analysis of the deposited data

Results flagged for a closer look

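Of 268 groups of 4 libraries, check libraries included, 24 had 1 library far from the other 3 in normalized counts of a named gene or marker, where chance gives about 1 in 20 groups of values that played no part in choosing the gene. Many of these genes were chosen because they were called between WT_2 to WT_4 and KO_9 to KO_11, so that rate cannot be applied to WT_1 or KO_12. The library labelled WT_1 accounted for 13 of the 24. It was low in Mtm1 at 108 (other WT libraries 379.8 to 403), in Col3a1 at 16451 (56460.0 to 64300.0) and in Hrasls at 920.0 (1582 to 1706). It was high in Ankrd1 at 862 (261 to 288), Ankrd2 at 16325 (285 to 2668), Xirp1 at 4723 (2992 to 3076), Cryab at 41452 (13192 to 16102), Des at 146245 (72560.0 to 81571) and Map1lc3a at 13112 (5395 to 6598). It was also high in Pgam2 at 193414 (79083 to 93900.0), Scx at 1256 (221 to 279), Timp1 at 717 (48.5 to 95.7) and Mt1 at 1232 (447 to 525). None of these values was in the test.

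KO_12, which was not in the test either, was high in Hspa5 at 10093 (other KO libraries 7970.0 to 8248) and Mpp3 at 237 (162 to 172), and low in Emr1 at 143 (224 to 234) and Hrasls at 387 (535 to 542).

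Among the tested libraries, WT_2 was high in the fat cell genes Adipoq at 3121 (193 to 353) and Plin1 at 2173 (124 to 278). WT_3 was high in Calm3 at 18102 (11159 to 12014) and Top2a at 375 (187 to 216). KO_11 was high in Actn3 at 136509 (94333 to 100653) and Phkg1 at 9359 (7925 to 8151). KO_10 was high in the neutrophil marker Ly6g at 14 (0 in the others).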

How the results depend on the processing

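No paired analysis was possible because the groups share no replicate number. Against 531 called genes, DESeq2 called 1678, the edgeR exact test 1448, both of these 1371, limma on log2(RPKM + 0.1) 824, scaling by library totals 1163, no filter 1096 and 1 fit over 4 groups 987. The threshold of 0.05 gave 1885. The count was 512 with RLE and 528 with upper quartile normalization. It fell to 349 with KO_12 added, 120 with WT_1 added and 211 with both, and ran from 182 to 363 with 1 library left out. Mtm1 lost its call with WT_1 added (log2 fold change -2.267, adjusted p = 0.0249) and with both check libraries added (-2.156, adjusted p = 0.0113). The position of the library labelled WT_1 was 0.492 over the genes at 0.05 and 0.459 over those of DESeq2 and the exact test, and that of KO_12 was 1.33 at 0.05. At 0.05 in both, 1282 genes were called with and without tamoxifen. Of 81 called named genes, all kept their call under DESeq2, the exact test, RLE and no filter, while 11 lost it with scaling by library totals, 12 with KO_12 added, 43 with WT_1 added, 28 with both, 16 and 18 with limma at a pseudocount of 0.1 and 1, and 20 to 34 with 1 library left out. The call was also lost by 4 in 1 fit over 4 groups and by 1 with upper quartile normalization. Of the named genes that had not been called, 17 gained a call under DESeq2, 17 under the exact test, 16 with no filter, 7 in 1 fit over 4 groups and 4 with scaling by library totals. Among named genes and markers, only ones that had not been called turned sign. With limma on log2(RPKM + 0.1), the log2 fold change was 0.219 for Dmd, 0.115 for Tfam, 0.076 for Hbb-bs and 0.061 for Alas2. With limma on log2(RPKM + 1), the log2 fold change was 0.168 for Dmd, 0.106 for Tfam, 0.076 for Hbb-bs, 0.035 for Alas2, 0.015 for Mki67 and 0.020 for Top2a. With scaling by library totals, the log2 fold change was 0.237 for Dmd, 0.047 for Col1a1, 0.129 for Tfam, 0.172 for Hbb-bs, 0.072 for Alas2, 0.225 for Mki67 and 0.192 for Top2a. With both check libraries added, the log2 fold change was 0.000 for Dmd, -0.216 for Tnmd, 0.282 for Mki67, 0.183 for Top2a and -0.230 for Mb. With WT_1 added, the log2 fold change was 0.103 for Dmd, -0.030 for Socs2, -0.016 for Pecam1, -0.273 for Tnmd, 0.034 for Mki67 and -0.254 for Mb. With 1 fit over 4 groups, the log2 fold change was -0.005 for Igf1. With KO_12 added, the log2 fold change was -0.068 for Socs3, -0.008 for Emr1, -0.030 for Plin1, 0.118 for Hbb-bs, 0.117 for Mki67 and 0.088 for Top2a. With 1 library left out it ran from -0.150 to 0.066 for Dmd, -0.263 to 0.183 for Igf1, -0.050 to 0.307 for Socs2, -0.163 to 0.254 for Socs3, -0.066 to 0.166 for Pecam1, -0.317 to 0.247 for Tnmd, -0.413 to 2.452 for Plin1, -0.734 to 0.162 for Hbb-bs, -0.867 to 0.262 for Alas2, -1.119 to 0.329 for Mki67 and -1.049 to 0.262 for Top2a. With 3 libraries a group, calls near the threshold can be lost when a library is left out, which also makes the groups smaller. The cause of these changes was not tested.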

Other observations

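Further called genes, chosen after their values were seen, belong to groups not described above. Uchl1, a neuronal deubiquitinase, was at 58.7, 66.2 and 186 normalized counts in WT and 1152, 1336 and 2072 in KO (log2 fold change 3.87 ± 0.44 (SE), adjusted p = 0.00131). Sox11, a transcription factor of immature neurons and other embryonic tissues, was at 23.7, 9.46 and 53.3 in WT and 336, 481 and 541 in KO (log2 fold change 3.96 ± 0.46 (SE), adjusted p = 0.00158). Mustn1, a small nuclear protein of the musculoskeletal system, was at 1322, 1383 and 1473 in WT and 7590.5, 15692 and 12912 in KO (log2 fold change 3.12 ± 0.25 (SE), adjusted p = 0.000308), and Map1a, a microtubule-associated protein, at 255, 493 and 335 in WT and 1112, 1645 and 1561 in KO (log2 fold change 1.997 ± 0.25 (SE), adjusted p = 0.00203). The KO libraries were above all WT libraries in each of these genes, which is no separate result for called genes chosen by their values. Map1a lost its call without WT_4 (adjusted p = 0.0129).

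Among genes that fell were protein lysine methyltransferases of muscle. Mettl21c was at 1875, 3182 and 3154 normalized counts in WT and 498, 287 and 455 in KO (log2 fold change -2.73 ± 0.27 (SE), adjusted p = 0.000798), and Mettl21e at 255, 225 and 365 in WT and 70.7, 49.3 and 52.1 in KO (log2 fold change -2.29 ± 0.26 (SE), adjusted p = 0.00131). Ampd1, the muscle AMP deaminase, was at 39696, 52049 and 35129 in WT and 14364, 16074 and 17299.6 in KO (log2 fold change -1.41 ± 0.18 (SE), adjusted p = 0.00218), and Klhl31, a kelch protein of muscle, at 18959, 23725 and 20959 in WT and 9419, 7849 and 9891 in KO (log2 fold change -1.23 ± 0.15 (SE), adjusted p = 0.00202). Ampd1 lost its call without KO_10 (adjusted p = 0.0111) and Klhl31 without WT_4 (adjusted p = 0.0101). The noncoding gene A530058N18Rik, which spans Actc1 on the opposite strand and C130080G10Rik on its own strand, was at 101, 289.6 and 126 in WT and 5.58, 3.72 and 8.08 in KO (log2 fold change -4.86 ± 0.53 (SE), adjusted p = 0.00125), and without a stated strand setting its reads and those of both genes cannot be told apart.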
